A study of Mus musculus with 10 samples.

Results

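The genes described here are the Notch receptors Notch1, Notch2 and Notch3, the Notch ligands Dll1, Dll3, Dll4, Jag1 and Jag2, and the targets Hey1 and Heyl. They were chosen by symbol, and all 10 were found, with 1 entry each, among the 20044 gene symbols (25152 entries) of the deposited table of H3K4me2 and H3K27me3 occupancy in mouse retina. Occupancy was measured by ChIP-Seq, in which chromatin carrying a given histone modification is recovered with an antibody and its DNA is sequenced, in the embryo at E17.5 and after birth at PN1, PN7 and PN15 (postnatal days). Each stage gave 1 library per mark, made from pooled retinas. The mice were wild type C57BL/6j by the published methods, while the sample labels name the strain Pde6b (rd1/rd1) for every library and write the embryonic stage as E17. The H3K4me2 library of PN30 rd1/rd1 retinas, which have lost their rods, and the anti-GFP library labelled PN56 have no column in the table and were not analysed here.

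Notch signalling passes between neighbouring cells. A ligand of the Delta-like or Jagged family on one cell binds a Notch receptor on the next, the receptor is cut by gamma-secretase, and its freed intracellular part joins Rbpj in the nucleus to switch on Hes and Hey genes, whose products are transcriptional repressors. In the developing retina the pathway keeps progenitor cells dividing, restrains the choice of neuronal fates and favours Mueller glia, and in blood vessels it patterns sprouting endothelium and the mural cells around it. H3K4me2 is found at active and poised promoters, and H3K27me3 is placed by Polycomb repressive complex 2 at silenced genes, mostly at promoters rich in CpG dinucleotides.

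The promoters of 3 of these genes are shown because each stands for a different course of the marks described below. Jag2 lost H3K27me3 by PN15, Notch1 gained it, and Dll3 lost H3K4me2. The sequences are from RefSeq (GRCm38.p6), run 5′ to 3′ from 250 bases before to 50 bases after the start, and occur unchanged and once in mm9, at chr12:114167657-114167956 for Jag2, chr2:26359293-26359592 for Notch1 and chr7:29086755-29087054 for Dll3, all on the minus strand. Capitals mark CpG dinucleotides.
Jag2: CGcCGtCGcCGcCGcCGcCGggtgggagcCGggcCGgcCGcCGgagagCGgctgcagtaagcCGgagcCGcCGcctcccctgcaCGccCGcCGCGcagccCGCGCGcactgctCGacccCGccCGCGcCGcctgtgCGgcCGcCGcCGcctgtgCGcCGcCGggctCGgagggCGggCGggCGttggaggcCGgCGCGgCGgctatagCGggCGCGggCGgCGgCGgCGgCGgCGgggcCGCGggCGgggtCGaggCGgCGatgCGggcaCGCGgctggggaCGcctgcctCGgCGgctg
Notch1: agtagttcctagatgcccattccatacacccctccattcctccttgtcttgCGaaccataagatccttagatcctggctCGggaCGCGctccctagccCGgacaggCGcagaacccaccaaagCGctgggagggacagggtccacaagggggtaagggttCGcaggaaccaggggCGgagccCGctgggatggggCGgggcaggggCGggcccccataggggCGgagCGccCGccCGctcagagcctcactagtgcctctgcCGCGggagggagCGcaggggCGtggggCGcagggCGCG
Dll3: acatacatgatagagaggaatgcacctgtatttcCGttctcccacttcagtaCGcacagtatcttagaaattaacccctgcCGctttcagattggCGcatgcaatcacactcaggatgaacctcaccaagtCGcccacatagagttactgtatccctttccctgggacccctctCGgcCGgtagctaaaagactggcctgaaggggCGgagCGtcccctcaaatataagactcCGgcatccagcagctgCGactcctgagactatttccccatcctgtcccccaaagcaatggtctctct

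Jag2 held 63 CpG in these 300 bases, Notch1 held 23 and Dll3 held 11, against a median of 15 over 17161 RefSeq promoters of symbols in the table. Of the 10 genes, 8 had a promoter in the RefSeq table used, and Hey1 and Heyl did not. The others were Notch2 with 41 CpG, Notch3 with 25, Dll1 with 24 and 15 at its 2 starts, Jag1 with 22 and Dll4 with 17. Jag2 had a higher CpG number than 99.95% of all promoters, Notch2 than 95.2% and Dll3 than 41.8%. The hexamer TGGGAA, the core of the Rbpj motif, was searched on both strands and matched none of the 9 promoters of these genes, against 23.9% of all promoters. The E-box CACGTG, which reads the same on both strands, also had no match in them, against 8.29% of all promoters.

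By the annotation of mm9, Notch1 lies on chromosome 2 (26313423 to 26372183, minus strand), Notch2 on chromosome 3 (97817461 to 97954290, plus strand) and Notch3 on chromosome 17 (32257765 to 32303825, minus strand). Dll1 is on chromosome 17 (15504318 to 15513836, minus strand), Dll3 on chromosome 7 (29076673 to 29087257, minus strand) and Dll4 on chromosome 2 (119151520 to 119161698, plus strand). Jag1 is on chromosome 2 (136907192 to 136942380, minus strand) and Jag2 on chromosome 12 (114146801 to 114167706, minus strand). The targets are Hey1 on chromosome 3 (8663362 to 8667039, minus strand) and Heyl on chromosome 4 (122910799 to 122927118, plus strand). The occupancy of a gene covers 2.5 kb on each side of its transcription start site (TSS) and thus the promoter and the 5′ part of the gene. Another annotated gene starts inside that window for Dll1 (the lincRNA A930024N18Rik) and Dll4 (the lincRNA Gm14207), whose occupancy may thus hold reads of both starts.

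The values are normalized occupancies, that is reads in the TSS window that the authors had put relative to library size and then rounded. In 5 libraries the frequencies of the whole numbers showed what 1 read was worth, between 0.3125 (H3K27me3 at PN7) and 0.946 (H3K4me2 at PN1). In the other 3 libraries, H3K4me2 at PN7 and PN15 and H3K27me3 at E17.5, it was taken as 1, its largest possible value, since no whole number from 0 to 50 is skipped. Intervals in the text are exact Poisson 95% intervals for a value and exact conditional binomial 95% intervals for a ratio of 2 values. They cover counting error only, since amplified reads without molecular identifiers are not independent molecules. The share of all symbols whose intervals do not overlap between 2 stages was not computed. Intervals that do not overlap thus do not by themselves set a gene apart from the others. With 1 library a group there is no replicate error and no test between stages. The H3K4me2 library of PN7 stood apart, with 19.5% of entries at 0 against 0.362% to 2.52% in the other H3K4me2 libraries.

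All 10 genes had H3K4me2 above background at every stage. The background was read from 1053 olfactory receptor entries, genes that retina does not use, whose 99th percentile was 6, 9, 1 and 9.48 for H3K4me2 at E17.5, PN1, PN7 and PN15. Between 68.3% and 72.6% of all gene symbols passed that level. The lowest H3K4me2 value of any of the 10 genes was 15, for Dll3 at PN15. Against the highest olfactory receptor entry of each library in place of the 99th percentile, 8 of the 10 passed at PN15, Dll3 (15) and Heyl (17) not exceeding 17, and all 10 at the other stages, against 59.4% to 65.3% of all symbols. The olfactory receptor level for H3K27me3 was 33.5, 44.0, 40.5 and 41.5 at the 4 stages, and it was passed by 4, 5, 5 and 4 of the 10 genes, against 17.1%, 15.4%, 15.9% and 13.8% of all symbols. Dll4 was the only gene above it at every stage. Jag1 and Jag2 were above it until PN7, Notch2 at E17.5, PN7 and PN15, Notch1 from PN1 on, Heyl at PN1 and Notch3 at PN15. Dll1, Dll3 and Hey1 stayed below it in all 4 libraries. These counts move with the level chosen, since at E17.5 7 genes passed the 95th percentile of the olfactory receptors, as did 24.3% of all symbols, and none passed their highest entry of 150, as did 5.79%.

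**Figure D1:**
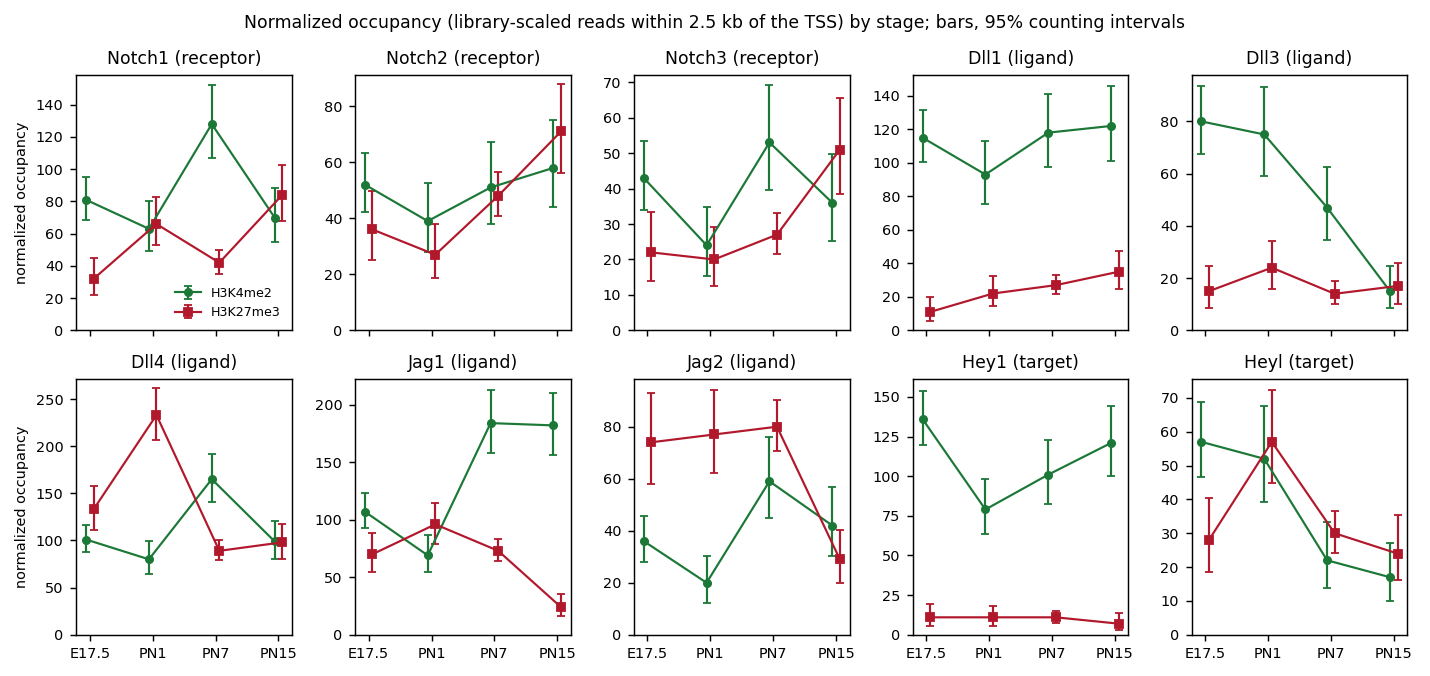
Normalized occupancy (y axis, own scale for each gene, starting at 0) of H3K4me2 (circles) and H3K27me3 (squares) at the 4 stages (x axis) for the 10 genes, 1 library for each point, with 95% counting intervals. H3K27me3 ended at its highest value in Notch1 (84), Notch2 (71), Notch3 (51) and Dll1 (35), and at its lowest in Jag1 (24), Jag2 (29), Hey1 (7) and Heyl (24), while the H3K4me2 of Dll3 (15) and Heyl (17) was lowest at PN15.

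The receptors gained H3K27me3 between E17.5 and PN15. Notch1, the receptor with the best known role in retinal progenitors, had 32, 66, 42 and 84 as H3K27me3 occupancy, given here and below in the order of the 4 stages. Its value at PN15 was 2.63 times that at E17.5 (1.74 to 4.04), and the intervals of the 2 stages, 21.9 to 45.2 and 67.8 to 102, did not overlap. In pooled whole retinas, fewer cells that carry a mark and less of the mark in each cell cannot be told apart. Notch2, a close paralog of Notch1, had 36, 27, 48 and 71, a ratio of 1.97 (1.31 to 2.99). Notch3, best known from vascular smooth muscle and pericytes, had 22, 20, 27 and 51, a ratio of 2.32 (1.39 to 3.95). In all 3 receptors PN15 was the highest stage and its interval lay above that of E17.5. The ranks rose as well, from 82.0% to 93.7% of gene symbols with a lower H3K27me3 value for Notch1, from 83.7% to 92.1% for Notch2 and from 75.7% to 88.6% for Notch3.

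At the receptors the intervals of H3K4me2 at E17.5 and PN15 overlapped. Notch1 had 81, 63, 128 and 70, Notch2 had 52, 39, 51 and 58 and Notch3 had 43, 24, 53 and 36. The ratio of PN15 to E17.5 was 0.864 (0.642 to 1.16) for Notch1, 1.12 (0.792 to 1.56) for Notch2 and 0.837 (0.551 to 1.26) for Notch3. The lowest stage was PN1 in all 3, and the highest was PN7 in Notch1 and Notch3 and PN15 in Notch2. At PN15 the 3 receptors thus had both marks above the olfactory receptor level, as had Dll4 and 10.9% of all gene symbols.

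**Figure D2:**
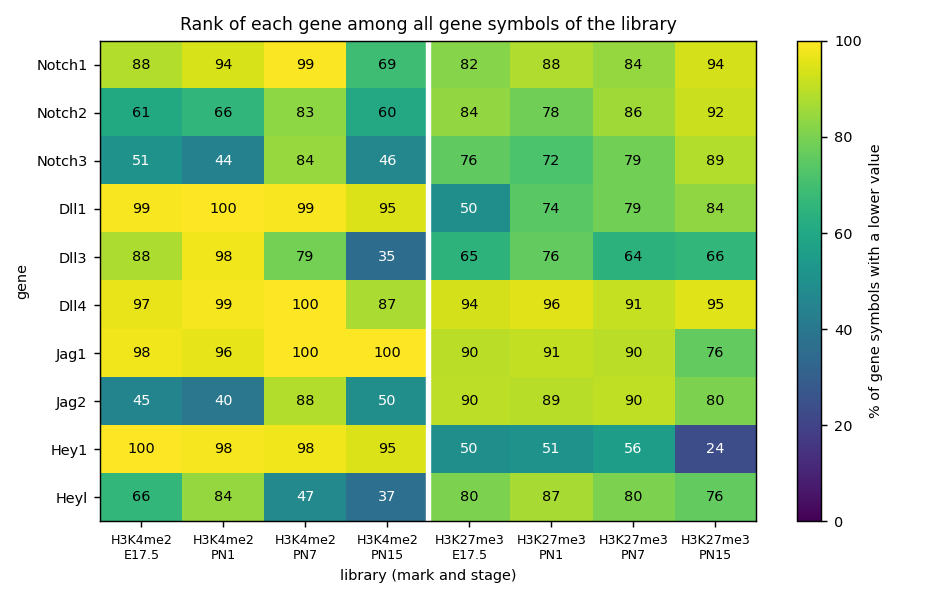
Percent of all 20044 gene symbols with a lower value than the gene named at the left, in each of the 8 libraries (columns, H3K4me2 to the left of the white line and H3K27me3 to the right). Hey1 ranks high for H3K4me2 throughout (94.7% at PN15) and low for H3K27me3 at PN15 (23.6%), while Dll4 ranks at 87.3% or above in all 8 libraries.

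The ligands did not move together. Dll1, the Delta-like ligand of newly formed neurons and dividing progenitors, combined high H3K4me2 with H3K27me3 that stayed below the olfactory receptor level in every library. Its H3K4me2 was 115, 93, 118 and 122 at the 4 stages in order, above 94.9% or more of all symbols in every library. Below that level its H3K27me3 was 11, 22, 27 and 35, higher at each successive stage, with a ratio of PN15 to E17.5 of 3.18 (1.60 to 6.86), the largest of the 10 genes. The intervals of neighbouring stages overlapped, and those of E17.5 (5.49 to 19.7) and PN15 (24.9 to 47.5) did not. Against the 95th percentile of the olfactory receptors in place of the 99th, 22.4 at PN7 and 29 at PN15, Dll1 passed at both stages.

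Dll3, a divergent Delta-like protein that acts within the cell rather than as an activating ligand, lost H3K4me2 without gaining H3K27me3. Its H3K4me2 was 80, 75, 47 and 15. The PN15 value was 0.188 times that of E17.5 (0.103 to 0.320), and the gene went from a rank of 87.6% of all symbols to one of 35.3%. The decrease lay after PN1. The values at E17.5 and PN1 had overlapping intervals, as had those at PN1 and PN7 (59.2 to 93.1 and 34.5 to 62.5). Those at PN7 and PN15 (8.40 to 24.7) did not overlap. H3K27me3 at Dll3 was 15, 24, 14 and 17, with overlapping intervals at E17.5 and PN15.

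Dll4, the Delta-like ligand of endothelial tip cells, which early retinal precursors also use, had the highest H3K27me3 value of the 10 genes at every stage. The values were 133, 233, 89 and 98, and their intervals overlapped that of the next gene at PN7 (Jag2, 80) and PN15 (Notch1, 84). The value at PN1 was 1.75 times that at E17.5 and the intervals (111 to 158 and 206 to 261) did not overlap, and the fall to PN7 was to 0.382 of the PN1 value. H3K4me2 at Dll4 was 101, 80, 165 and 99, highest at PN7, the stage of its lowest H3K27me3, although the H3K27me3 intervals of PN7 and PN15 overlapped.

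Jag1 and Jag2, the Jagged ligands, lost H3K27me3 late. Jag1 had H3K27me3 of 70, 96, 73 and 24, and Jag2 had 74, 77, 80 and 29. For Jag1 the PN15 value was 0.343 times that of E17.5 (0.217 to 0.548) and for Jag2 it was 0.392 times (0.250 to 0.594). In both genes the first 3 stages lay above PN15 with no overlap of intervals, and PN7 to PN15 was the step of the fall, to 0.329 of the PN7 value in Jag1 and 0.363 in Jag2.

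The Jagged genes differed in H3K4me2. Jag1 had 107, 69, 184 and 182, and Jag2 had 36, 20, 59 and 42. Jag1 at PN15 was 1.70 times its E17.5 value (1.38 to 2.09) and stood above 99.7% of all symbols, the highest H3K4me2 of the 10 genes at that stage. Jag2 at PN15 was 1.17 times its E17.5 value (0.776 to 1.75) and stood above 49.6% of symbols. Jag2, the gene with the CpG-richest promoter shown above, was thus near the middle of all symbols in H3K4me2 at PN15.

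Of the targets, Hey1 was the gene with H3K4me2 and no H3K27me3 above background. Hey1, a bHLH repressor switched on directly by Notch, had H3K4me2 of 136, 79, 101 and 121 and H3K27me3 of 11, 11, 11 and 7. At E17.5 its H3K4me2 exceeded that of 99.8% of all symbols and was the highest of the 10 genes. The ratio of PN15 to E17.5 was 0.890 (0.710 to 1.11). Its H3K27me3 values had overlapping intervals between E17.5 and PN15, 5.49 to 19.7 and 3.01 to 13.8, and the decrease was not detectable at this depth.

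Heyl, the related repressor that is known from mural cells, fell further in H3K4me2. It had 57, 52, 22 and 17, a ratio of PN15 to E17.5 of 0.298 (0.168 to 0.503), and its rank fell from 66.1% to 36.5% of all symbols. The intervals at PN1 (39.2 to 67.7) and PN7 (13.8 to 33.3) did not overlap, and those at PN7 and PN15 did. Relative to all symbols, whose median also fell from PN1 to PN7, that step was within 2-fold (−0.70) and the step from PN7 to PN15 was called lower (−1.35). Its H3K27me3 was 28, 57, 30 and 24, with PN1 above E17.5, PN7 and PN15 with no overlap of intervals.

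To compare with other genes, the change between 2 stages was expressed as the log2 ratio of the values, each increased by 1, less the median of that ratio over all symbols, and a gene was called at 2-fold (1 on the log2 scale). For H3K4me2 the medians taken off were −0.42 from E17.5 to PN1, −0.50 from PN1 to PN7, 1 from PN7 to PN15 and 0.13 across the whole interval. For H3K27me3 it was −0.16 from PN1 to PN7 and 0 in the other 3 comparisons. The comparison of E17.5 with PN15 shares its libraries with the successive steps. Across it H3K27me3 was called higher in 3 of the 10 genes, where 12.2% of all symbols were, and lower in 2, where 16.1% were. The higher genes were Dll1 (1.58), Notch1 (1.36) and Notch3 (1.18), with Notch2 just short (0.96), and the lower genes were Jag1 (−1.51) and Jag2 (−1.32). The median of the 10 genes was −0.02, with the receptors and the Jagged ligands on opposite sides of it. H3K4me2 over the same interval was called lower in 2, Dll3 (−2.47) and Heyl (−1.82), where 12.8% of all symbols were, and higher in none, where 5.17% were. Jag1 came nearest, with 0.63. The median of the 10 genes was −0.23.

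**Figure D3:**
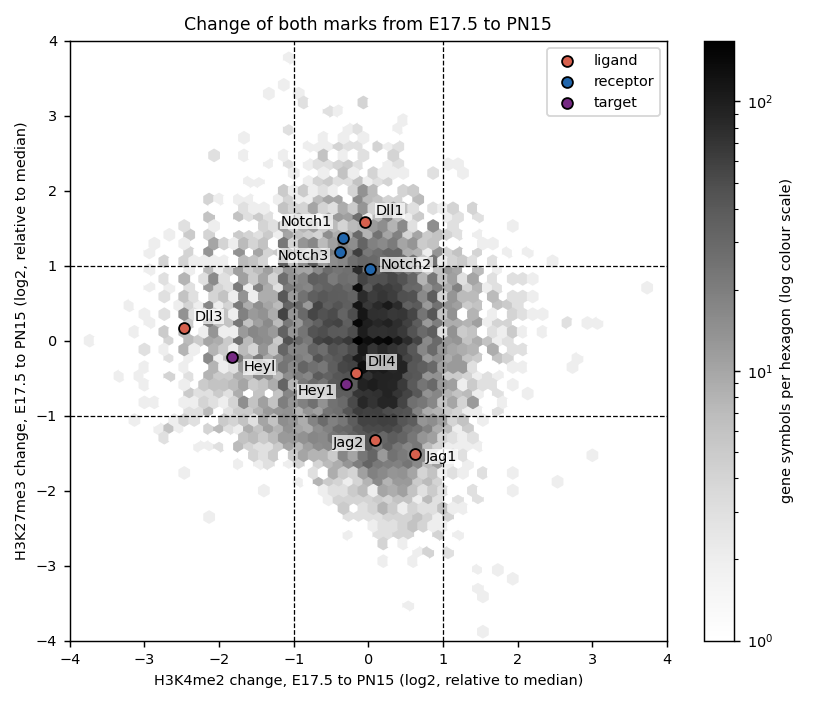
Change from E17.5 to PN15 of H3K4me2 (x axis) and H3K27me3 (y axis), as log2 ratio relative to the median of all symbols, for all gene symbols (grey hexagons, log colour scale) and the 10 genes (coloured by role). Dashed lines mark 2-fold. Notch1, Notch3 and Dll1 lie above the upper line, Jag1 and Jag2 below the lower line, and Dll3 and Heyl to the left of the left line.

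No gene of the 10 passed 2-fold in both marks. Notch1, Notch3 and Dll1 had higher H3K27me3 with H3K4me2 within 2-fold, a combination found in 9.19% of all symbols. Jag1 and Jag2 had lower H3K27me3 with H3K4me2 within 2-fold (13.6% of symbols), and Dll3 and Heyl had lower H3K4me2 with H3K27me3 within 2-fold (9.04%). Notch2, Dll4 and Hey1 were within 2-fold in both (59.2%). Higher H3K4me2 together with lower H3K27me3, found in 1.03% of symbols, was not seen in these genes.

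Between successive stages the calls fell mostly on H3K4me2 at PN7. The rises to PN7 and the falls from it share that 1 library, which stood apart with 19.5% of entries at 0. Notch1, Notch3, Dll4, Jag1 and Jag2 were called in both steps, so the 2 sets of calls are not independent. From PN1 to PN7 it was called higher in 5 of the 10 genes, where 13.7% of all symbols were, namely Jag2 (2.02), Jag1 (1.90), Notch3 (1.61), Dll4 (1.54) and Notch1 (1.51). The intervals of these genes at PN1 and PN7 did not overlap. None was called lower, where 26.6% of symbols were, and the lowest were Heyl (−0.70) and Dll3 (−0.16). Without taking off the median these 5 were still past 2-fold (1.01 for Notch1 to 1.51 for Jag2) and Heyl was called lower (−1.20), where 4.09% of all symbols were called higher and 36.8% lower. With the libraries brought to 1 distribution (quantile normalization) the count of higher genes was 2, where 8.70% of symbols were.
From PN7 to PN15 H3K4me2 was called lower in 7, where 17.1% of symbols were, and higher in none, where 15.9% were. The 7 were Dll3 (−2.58), Notch1 (−1.86), Dll4 (−1.73), Notch3 (−1.55), Jag2 (−1.48), Heyl (−1.35) and Jag1 (−1.02), of which Dll3, Notch1 and Dll4 had intervals at PN7 and PN15 that did not overlap. Without taking off the median of 1 the count was 1 (Dll3), where 2.06% of symbols were called lower and 52.3% higher. Jag1, called lower at −1.02, had almost the same occupancy at PN7 and PN15, 184 and 182. From E17.5 to PN1 no gene was called in H3K4me2, where 13.7% of symbols were called higher and 1.11% lower, and the 10 genes lay between −0.40 and 0.32.

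**Figure D4:**
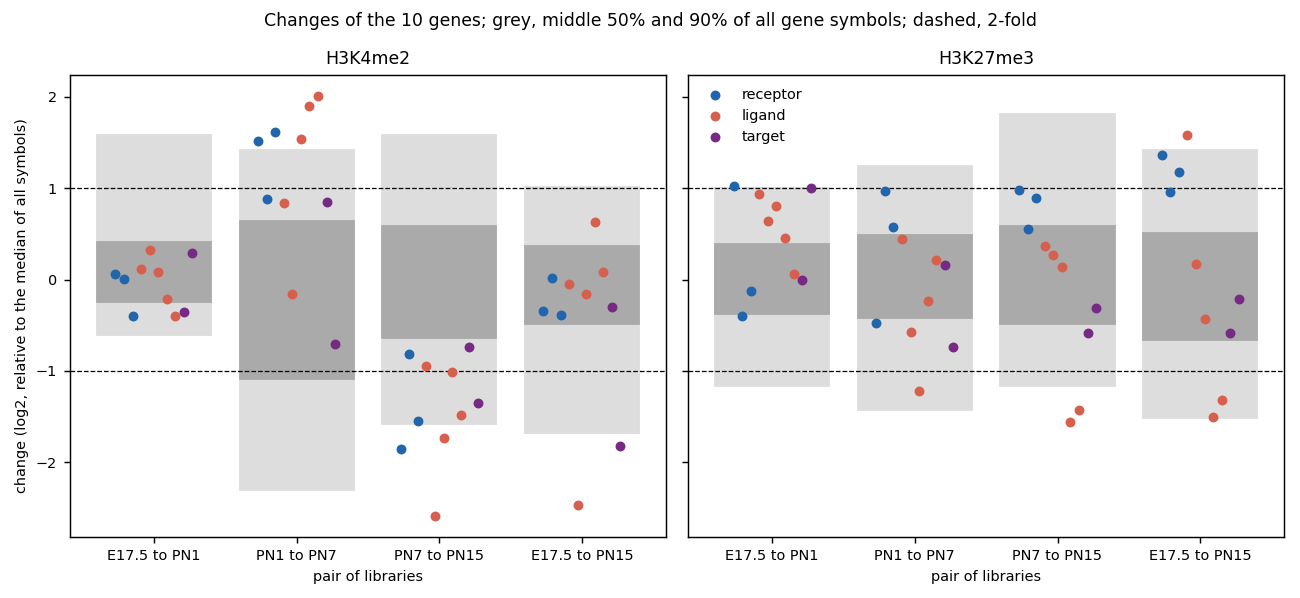
Log2 change relative to the median of all symbols (y axis) of the 10 genes (points, coloured by role, in the order receptors, ligands, targets) between 2 stages (x axis), for H3K4me2 and H3K27me3. Grey bars hold the middle 50% (dark) and 90% (light) of all symbols and dashed lines mark 2-fold. In H3K27me3 the receptors reach 1.36 at most and the Jagged ligands fall to −1.51 from E17.5 to PN15.

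The successive steps moved fewer of the genes in H3K27me3. From E17.5 to PN1 it was called higher in 2, where 5.77% of symbols were, Notch1 (1.02) and Heyl (1), both at the limit, and lower in none, where 8.27% were. With a pseudocount of 5 in place of 1 neither was called. From PN1 to PN7 Dll4 (−1.22) was called lower, where 9.33% of symbols were, and no gene was called higher, where 8.44% were. From PN7 to PN15 Jag1 (−1.57) and Jag2 (−1.43) were called lower, where 9.7% were, and no gene was called higher, where 15% were, with Notch1 (0.98) and Notch3 (0.89) nearest. With quantile normalization Notch1 (1.66), Notch2 (1.07) and Notch3 (1.18) were called higher, where 9.84% of symbols were.

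The profiles of Notch2 and its fellow receptors were close. Over the 8 values on the log2 scale (each increased by 1) the Euclidean distance was 1.58 between Notch2 and Notch3 and 2.09 between Notch1 and Notch2, the smallest distances among the 10 genes, followed by Dll3 and Heyl (2.28). Notch1 and Notch3 were farther apart (3.01) than the ligands Dll4 and Jag1 (2.70) or Notch1 and Jag1 (2.75). Among all symbols the most like profiles were those of Fzd7, Foxp2 and Samd4 for Notch1 (distances 0.82 to 0.88), Rras2, Cadm4 and Cenpv for Notch2 (0.72 to 0.77) and Vgll3, Zmym3 and Gpc4 for Notch3 (0.76 to 0.89). For Dll1 they were Ankrd34a, Mgat4b and Dpysl5 (0.76 to 1.06), for Dll3 Hif3a, Arhgap24 and Prss23 (1.19 to 1.54) and for Dll4 Nfia, Gadd45b and Scrt1 (1.09 to 1.23). Jag1 was most like Kcnn2, Fos and Dhrs3 (0.88 to 0.93) and Jag2 most like Tmem56, Map3k8 and Hecw1 (0.74 to 0.78). Hey1 was most like Pank4, Tnpo2 and 0610010K14Rik (0.51 to 0.72) and Heyl most like Sema3c, Cd109 and Grm3 (0.93 to 1.26). The median distance to all symbols was between 4.58 and 8.86 for these genes, and the points share their libraries.

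Other genes of the pathway were taken from a list of 58, all in the table (Poglut1 under its older symbol Ktelc1). Across the whole interval H3K27me3 was called higher in 8 of the 58 (13.8%, against 12.2% of all symbols) and lower in 15 (25.9%, against 16.1%), with a median change of −0.17. Here and below pathway genes are ranked by log2 change. The largest gains were at Hes1 (13 to 73), the principal Notch target of retinal progenitors, Lfng (34 to 130), a glycosyltransferase that tunes the response of Notch to its ligands, and Dtx1 (10 to 35), a cytoplasmic regulator of Notch, which stayed below the olfactory receptor level. The largest losses were at Neurl1a (54 to 9), a ubiquitin ligase that acts on ligands, Hes7 (29 to 7), a target known from somites, and Aph1a (23 to 6), a gamma-secretase subunit, of which the last 2 were below the olfactory receptor level in every library. In occupancy the losses at Hes3 (271 to 83), Dlk1 (329 to 153) and Dlk2 (308 to 134) were larger. Of the genes called higher, Hes1 and Lfng alone passed the olfactory receptor level in any H3K27me3 library. Of those called lower, Neurl1a, Hes3, Aph1c, Dlk1 and Dlk2 alone did. All other called genes stayed below it, so these counts rest largely on values within background.
H3K4me2 was called lower in 4 of the 58 (6.90%, against 12.8% of all symbols) and higher in 1 (1.72%, against 5.17%) over the same interval, with a median of 0.15. The lower ones were the glycosyltransferases Mfng (58 to 19) and Lfng (89 to 32), the coactivator Maml2 (14 to 5) and the target Hes3 (40 to 17). The higher one was Numb (2 to 6), an inhibitor of Notch, whose values stayed below the olfactory receptor level in every library. Rbpj, the DNA-binding partner of Notch, had H3K4me2 of 94, 48, 101 and 128 and H3K27me3 of 3 to 7. None of the 10 proteases was called in H3K4me2 between E17.5 and PN15. 
Of the 6 other Hes and Hey genes, Hes5 had H3K4me2 of 98, 74, 131 and 88 and H3K27me3 of 7, 12, 17 and 11. Hey2, the third Hey gene, had H3K4me2 of 92, 71, 80 and 110 and H3K27me3 of 33, 59, 31 and 17. Hey2 thus had the PN1 maximum of H3K27me3 that Heyl had and the high H3K4me2 at PN15 that Hey1 had. Hes3 carried the most H3K27me3 of the 6, 271, 348, 234 and 83. Notch4, the receptor of endothelium, had H3K4me2 of 9, 7, 2 and 16 and H3K27me3 of 15 to 21, the lowest H3K4me2 of the 4 receptors at every stage.
From PN1 to PN7, H3K4me2 was called higher in 19 of the 58 (32.8%, against 13.7% of all symbols) and lower in 2 (3.45%, against 26.6%). From PN7 to PN15 it was called higher in 3 (5.17%, against 15.9%) and lower in 13 (22.4%, against 17.1%). Without taking off the median, an alternative chosen after the data were seen, that step had 19 higher (against 52.3% of all symbols) and 1 lower (Mfng, against 2.06%), and the step before had 11 higher (against 4.09%) and 5 lower (against 36.8%). The largest rises to PN7 were at Ctbp2 (46 to 154), a corepressor, Maml3 (52 to 139), a coactivator, and Dlk2 (32 to 84), a membrane protein related to the Delta-like ligands. The lower ones were Numb (8 to 0) and Cir1 (49 to 15), a corepressor. To PN15, Cir1 (15 to 86), Notch4 and Numb were higher, and Mfng (40 to 19), Dlk2 (84 to 42) and Hes1 (152 to 85) were the largest of the falls. From E17.5 to PN1 Numb (2 to 8) was called higher (1.72% of the 58, against 13.7% of all symbols) and Hes3 (40 to 12) lower (1.72%, against 1.11%), and without taking off the median 5 were lower (against 6.78%).
In H3K27me3 the successive steps called few of the 58. From E17.5 to PN1 5 were higher (8.62%, against 5.77% of all symbols) and 4 lower (6.90%, against 8.27%). From PN1 to PN7 4 were higher (6.90%, against 8.44%) and 2 lower (3.45%, against 9.33%), and from PN7 to PN15 3 were higher (5.17%, against 15%) and 9 lower (15.5%, against 9.7%). Without taking off the median, 8 of the 58 were lower from PN1 to PN7, where 13.5% of all symbols were. From E17.5 to PN1 the largest gains were at Lfng (34 to 84) and Adam10 (3 to 8). Next came Mfng (6 to 13), Aph1b (9 to 19) and Hes1 (13 to 27), tied at a log2 change of 1. Losses included Maml3 (8 to 2) and Ctbp1 (20 to 6). Of these genes Lfng alone passed the olfactory receptor level in this step. From PN1 to PN7 Furin (18 to 5) and Ctbp2 (20 to 8) were lower, and every gene called in this step was below the olfactory receptor level at both stages. From PN7 to PN15 Neurl1a (45 to 9), Hes7 (24 to 7) and Hes3 (234 to 83) fell most, and Mib2 (6 to 16), Dtx1 (15 to 35) and Nrarp (15 to 33) rose most, with each of these 3 below the olfactory receptor level at every stage.

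The tissue was checked with marker genes. Summed over 3 progenitor markers (Rax, Sox2, Pax6) H3K4me2 was 346, 228, 279 and 190 at the 4 stages. Of these, Rax had 105, 75, 41 and 110, highest at PN15, while Sox2 went from 104 to 36 and Pax6 from 137 to 44 between E17.5 and PN15. Over 4 photoreceptor markers (Sag, Nrl, Crx, Rcvrn) the sum was 65, 74, 71 and 461. H3K27me3 over the photoreceptor markers was 47, 59, 47 and 40, so that their gain was in the libraries titled H3K4me2, the marks whose antibody catalogue numbers the labels and the paper give the other way round. H3K27me3 over the progenitor markers was 47, 135, 268 and 413. Dll1 also rose at each stage. The Notch receptors were higher at PN15 than at E17.5 but did not rise at each step, with Notch1 falling from 66 at PN1 to 42 at PN7. The part of the progenitor rise in the values of these genes was not tested. For the cell types outside the neural retina that use Dll4, Notch3 and Heyl, H3K4me2 over 6 endothelial markers was 167, 129, 88 and 126, of which Kdr alone, which retinal progenitors also use, gave 112, 84, 55 and 70, and 2 or 3 of the 6 markers were above the olfactory receptor level at each stage. Pecam1 was at 4, 5, 1 and 0 and Tie1 at 5, 5, 0 and 4. Esam, with 379, 454, 188 and 87, had most of the H3K27me3 of that list and was highest at PN1, as was Dll4. So were Jag1, Heyl, Hes3 (348), Dlk1 (395) and Dlk2 (317), while Jag2 was highest at PN7. The part of endothelial cells in the H3K27me3 of Dll4 was not tested. Over 4 mural markers H3K4me2 was 67, 50, 15 and 26, lower at PN7 and PN15 than before, as was Heyl, with 1 to 3 of the 4 above the olfactory receptor level, and Acta2 was at 0 at PN7. From PN1 to PN7 the H3K4me2 sum fell in every marker list but that of the progenitors. The falls included lens (21 to 4), microglia (12 to 4) and pigment epithelium (18 to 2), so the fall to PN7 was not particular to mural markers. The part of mural cells in the H3K4me2 of Heyl was not tested. The H3K4me2 of 3 lens, 3 microglia and 4 pigment epithelium markers summed to between 2 and 23 in every library. The sum over 4 Mueller glia markers (Glul, Rlbp1, Slc1a3, Apoe) was between 178 and 250, and that of H3K27me3 rose from 54 to 201, of which Rlbp1 gave 136.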

How the data were processed

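Retinas were profiled for H3K4me2 and H3K27me3 at 4 stages. Of the 10 samples, 2 have no column in the table. Nuclei were digested with micrococcal nuclease. The deposited values are scores: the authors mapped reads with Bowtie 0.12.4 to mm9 (version and build also in the submitters' processing notes), kept unique positions, summed reads within 2.5 kb of each RefSeq TSS and scaled them to the library. The rounded scores are not counts, and changes were not tested with a count model. The counting intervals rest on reads estimated from the scores. Antibody catalogue numbers are exchanged between the labels and the paper. The mark was taken from the title. The H3K27me3 column of PN7 carries an added letter b and was matched by stage and mark to the only such sample.

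Entries were joined by symbol, ignoring case and suffix numbers, keeping for each symbol the one with the largest sum. The value of 1 read was fitted by least squares to the frequencies of whole numbers and accepted at a correlation of 0.7 or more with the fitted pattern. Calls used a pseudocount of 1, the median over 20044 symbols and 2-fold. Steps were tested on simulated data. The 10 genes, pathway list and markers were chosen with earlier results of these data known. Named were the 10 genes, up to 3 called pathway genes in each direction of a comparison (more where tied), and the 3 most like symbols. Rbpj, Hes5, Hey2, the promoters shown, and Hes3, Aph1c, Dlk1 and Dlk2 where they stand beyond the first 3 of the changes from E17.5 to PN15, were chosen after their values were seen. Some pathway and marker genes are not reported here. Alternatives were a pseudocount of 5, no median, quantile normalization, means over entries, a mean of at least 10, 1.5-fold and other olfactory receptor levels. Python 3.11.15, numpy 2.4.6, pandas 2.3.3, scipy 1.17.1 and matplotlib 3.10.9 were used.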

Additional observations from a re-analysis of the deposited data

How the results depend on the processing

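With 1 library a stage, no replicate could be left out. No paired analysis was possible because each mark and stage has 1 library. Counts are given with the share of all symbols called under the same setting. For H3K4me2 from PN1 to PN7 the count of higher genes, 5 (13.7%), became 2 with quantile normalization (8.70%) and 8 at 1.5-fold (27.3%), and the count of lower genes, 0 (26.6%), became 1 without the median (36.8%), with quantile normalization (8.81%), with a mean of at least 10 (8.44%) and at 1.5-fold (32.4%). From PN7 to PN15 the count of lower genes, 7 (17.1%), became 1 without the median (2.06%). From E17.5 to PN15 the 0 higher genes (5.17%) became 1 at 1.5-fold (Jag1, 14.3%). For H3K27me3 from E17.5 to PN1 the 2 higher genes (5.77%) became 0 with a pseudocount of 5 (1.11%), with quantile normalization (5.93%) and with a mean of at least 10 (1.53%), and 5 at 1.5-fold (16.1%). From PN1 to PN7, at 1.5-fold, the 0 higher became 1 (19.7%) and the 1 lower became 2 (19.2%). From PN7 to PN15 the 0 higher (15%) became 3 with quantile normalization (Notch1, Notch2, Notch3, 9.84%), 2 with a mean of at least 10 (10.6%) and 2 at 1.5-fold (27.2%). The H3K27me3 counts from E17.5 to PN15 stayed within 1.5 times under every alternative. The number of genes above the H3K27me3 background, 4, 5, 5 and 4 in stage order, became 7 at E17.5 (24.3%) and 8 at PN7 (24.3%) with the 95th percentile, and 0, 1, 0 and 1 with the highest olfactory receptor entry (5.79%, 4.91%, 3.57% and 5.66%). For H3K4me2 at PN15 that entry left 8 of 10 (62.9%). Means over entries moved no count, and they could not change the values of the 10 genes, each of which has 1 entry. No call of a single gene changed sign. Where the construction of an alternative does not show it, the cause was not tested. Depth limits H3K27me3 at Hey1, with 7 to 11.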
